A study of Mus musculus with 3 samples.

Results

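The 10 genes described here encode secreted modulators of Wnt signalling, followed through single-cell RNA counts of early mouse mesoderm. They were taken by gene symbol from the 51923 genes of the count matrix, and all 10 were found: Sfrp1, Sfrp2, Sfrp5, Frzb, Dkk1, Dkk2, Rspo1, Rspo2, Rspo3 and Rspo4. Cells carrying the tdTomato label of the Ai9 reporter, switched on by Mesp1-Cre in nascent mesoderm, were sorted from C57BL/6 embryos at E8.0, E8.5 and E9.5. Control embryos were Mesp1-Cre; Ai9; Wls fl/+ and mutant embryos Mesp1-Cre; Ai9; Wls fl/fl, so both groups carried the Cre, the reporter and at least 1 floxed Wls allele. Wls is the membrane protein that carries Wnt ligands to the cell surface, and Cre removes it from the Mesp1 lineage only, so other tissues of the embryo keep it. Cells pooled in a run were assigned by lipid-tagged barcodes (MULTI-seq), and 1 barcode in 1 run formed a barcode sample, the unit of every test.

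Wnt ligands signal through Frizzled receptors and the co-receptors Lrp5 and Lrp6. Secreted Frizzled-related proteins (the Sfrp genes, and Frzb, also called Sfrp3) bind the ligand outside the cell, while Dickkopf proteins (the Dkk genes) bind the co-receptors. R-spondins (the Rspo genes) act in the opposite direction: together with Lgr receptors they hold back Znrf3 and Rnf43, the ligases that remove Frizzled from the membrane. In heart development Wnt activity must be low for cardiac differentiation to proceed and is needed earlier and in progenitors, and several of these modulators, Dkk1 among them, are also transcriptional targets of the pathway.

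The deposited counts held 14777 cells, 9852 of them control and 4925 mutant, in 22 barcode samples of 134457 to 61307782 unique molecular identifiers (UMIs). At E8.0 there were 3 samples of each genotype, at E8.5 2 control samples and 1 mutant sample, and at E9.5 6 of each. A further sample of 28 cells carries the labels E7.5 and control, a stage with no mutant. E8.0 was sequenced in run 1 alone and E8.5 in run 2 alone, while each of the 3 runs held E9.5 samples of both genotypes. Cells had a median of 23112 UMIs in the first run, 23555 in the second and 11866 in the third, and 23 cell barcodes occurred in more than 1 run. Levels are given as CPM, the UMIs of a gene scaled to the summed UMIs of its sample, and differences as log2 fold changes with an approximate standard error (SE). This SE is the absolute log2 fold change divided by the square root of the F statistic of its test. The labels do not say if a barcode stood for a single embryo, so the p-values measure the spread between barcode samples, which may be technical.

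Wls itself was checked first. It stood at 54.1, 55.1 and 65.4 CPM in the E8.0 controls and at 7.25, 13.9 and 14.2 CPM in the E8.0 mutants. At E9.5 the controls ranged from 35.9 to 46.1 CPM (median 42.6) and the mutants from 8.54 to 12.1 CPM (median 10.5). At E8.5 they stood at 39.1 and 59.6 CPM in the controls and 3.72 CPM in the mutant. The groups did not overlap at any of these stages. The library labelled E7.5 control stood apart from the other controls. It held 7 Wls UMIs, 14.1 CPM (95% exact Poisson interval 5.67 to 29.0), below every other control and within the range of the E8.0 mutants. Of its 28 cells 60.7% were positive for erythroid markers, so a wrong label and its cell make-up cannot be told apart. This library was 1 of the 22 samples in the 2 fits over all stages, where E7.5 had a term of its own. Its cells are among the control cells where single cells are counted. Without it the same number of members passed, 1 for genotype and 6 for stage, and 2267 and 4000 of all genes in place of 2134 and 4001.

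Promoter sequences are given as background, since the counts are of transcripts and no promoter was assayed. RefSeq promoter windows, 250 bases before to 50 after a start site on GRCm38.p6, were matched for 7 of the 10 genes. No window was found for Sfrp1, Rspo2 and Rspo3. The windows were searched on both strands for CTTTGA, read as TCAAAG on the opposite strand. This is a form of the core of the sites bound by the Tcf and Lef factors of the canonical Wnt pathway, and other forms were not searched for. The motif was found in 2 of the 7 windows and in 16.0% of all 32851 promoters in the table. Frzb held 1 match, at -95 counted from its RefSeq start site, and Dkk1 held 2, at -174 and -117. The starts differ by annotation: GENCODE M21 begins Frzb at chr2:80447625 and Dkk1 at chr19:30549665, so by GENCODE the Frzb match and the second Dkk1 match lie inside the transcribed gene and the first Dkk1 match reaches its first base. The Frzb match is shown because Frzb was lower in the E9.5 mutants, a call that was lost without any 1 of 4 samples, and the Dkk1 matches because Dkk1 is a known pathway target. Each is given with 12 bases on either side, 5′ to 3′ on the gene's own minus strand, with the match in capitals. The Frzb stretch is chr2:80447474-80447503, and the Dkk1 stretches are chr19:30549653-30549682 and chr19:30549596-30549625.
Frzb match: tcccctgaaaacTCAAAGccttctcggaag
Dkk1 first match: gaggggagagtgTCAAAGtcctccctgctt
Dkk1 second match: ctcctcccaaagCTTTGAaatcccatcccg
The 250 bases before the start of Dkk2 (chr3:132085042-132085291, plus strand) are shown because Dkk2 had the largest difference between genotypes that passed a test. They hold no CTTTGA, which says only that these letters are not in this window. The letters CTTTGT, which differ in the last base and were not searched for, do occur in it.
Dkk2 promoter: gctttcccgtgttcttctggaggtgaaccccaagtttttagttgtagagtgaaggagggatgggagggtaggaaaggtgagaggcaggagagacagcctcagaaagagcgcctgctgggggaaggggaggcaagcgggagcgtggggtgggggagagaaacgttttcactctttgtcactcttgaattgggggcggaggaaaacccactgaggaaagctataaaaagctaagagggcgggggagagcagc

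To see which cells carried these transcripts, cells were grouped by 11 lists of lineage markers. A cell counted as positive for a list when its marker score, the expected number of list markers seen at 5000 UMIs, passed a threshold that was set after the scores had been seen. Cells positive for exactly 1 list formed a class, 4312 cells were positive for none, and 1091 cells positive for several lists were left out of the classes. The class called lateral plate was set by a list of lateral plate and allantois markers, and these were not separated. The list of the posterior second heart field class likewise included splanchnic mesoderm. Many cells lay near a threshold: 78 cells lay within 0.25 of the cardiomyocyte threshold, but 1234 lay that near to the posterior second heart field one and 1244 to the cranial one. The classes are therefore ranges of a score, and differences between them are described without a test. No doublet caller was run. The sort also held 174 cells positive for neural markers and 94 positive for endoderm markers.

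In control cells the antagonists were not all highest in the same class, though some shared a leading class. The mean and standard deviation (SD) of a class are taken over its control samples of all stages. Each SD therefore also holds differences between stages. Sfrp1 was highest, among classes of more than 1 sample, in cells positive for posterior second heart field markers, the progenitors of the atria and venous pole, at 222.6 ± 48.0 CPM (SD, n = 8 samples). Cells with neural markers had 198.2 ± 73.1 CPM (n = 2) and cranial mesoderm 114.6 ± 37.2 CPM (n = 8), and these neighbours overlapped within 1 SD. At the low end Sfrp1 stood at 11.0 ± 2.88 CPM in endothelial (n = 5) and 3.83 ± 3.36 CPM in erythroid cells (n = 9). In single cells thinned to 5000 UMIs, 59.2% of posterior second heart field cells held an Sfrp1 UMI, against 1.32% of erythroid cells. The erythroid share is taken as an assumed background, since free RNA was not measured. Unthinned, these shares were 88.0% and 6.01%, at a median of 21518 and 28943 UMIs per cell.

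Sfrp2 had a different centre, the cells positive for neural markers, with 216.1 ± 51.9 CPM (n = 2 samples, both E9.5). The next classes with a mean, paraxial (35.9 ± 11.1, n = 7), lateral plate, cells of no list, posterior second heart field and cranial, ran from 35.9 to 27.3 CPM and overlapped one another. In pooled E9.5 control cells, endoderm-positive cells had 55.8 CPM of Sfrp2, above paraxial cells (38.5 CPM). Cardiomyocyte-positive cells had only 5.50 ± 3.00 CPM of Sfrp2 (n = 9). Here and below, cells with at least 3 UMIs of a member were taken over both genotypes and all stages to find their leading genes. The 812 such cells for Sfrp2 were led by Sox2, Hes5, Crabp2 and Hoxa5, of which the first pair are neural progenitor genes. Of these 812 cells, 72 were in the neural class, 375 were positive for no list, 97 were paraxial and 80 posterior second heart field.

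Sfrp5, a known gene of the venous pole and of early heart progenitors, was concentrated in 3 classes. The proepicardial class, present with 20 or more cells in a single control sample at E8.5, stood at 216.4 CPM. Posterior second heart field cells had 50.4 ± 38.6 CPM (n = 8) and cardiomyocytes 43.6 ± 46.1 CPM (n = 9), and these values differed by stage, as given below. Every other class of a marker list with a mean had 3.99 CPM or less, and pooled E9.5 control endoderm cells had 4.92 CPM. Cells with at least 3 Sfrp5 UMIs, 657 in all over both genotypes, were led by Shox2, Wnt2, Gata4, Vsnl1, Mab21l2, Alcam and Hcn4. Shox2 and Hcn4 are genes of the sinus node and sinus venosus, and Shox2 stood at 77.3 CPM in these cells against 4.17 CPM in the others.

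Averaged over samples of all stages, Frzb and Dkk1 were highest in cranial mesoderm, with broad spread. Frzb stood at 31.6 ± 18.2 CPM in cranial mesoderm (n = 8), 24.2 ± 26.0 CPM in anterior second heart field (n = 5) and 23.5 ± 8.78 CPM in lateral plate cells (n = 7), and these 3 classes overlapped. Dkk1 stood at 22.4 ± 11.5 CPM in cranial mesoderm and at 16.4 ± 3.83 CPM in cells of no list (n = 9), again with overlap, and at 14.3 ± 24.4 CPM in anterior second heart field (n = 5). The order differed at E8.0, where the 1 control sample with 20 or more anterior second heart field cells had 69.8 CPM of Frzb and 57.9 CPM of Dkk1, above all 3 cranial values of each gene (up to 60.0 and 44.1 CPM). Cells with at least 3 UMIs of Frzb were led by Zic1, Foxl2, Wfdc1 and the Wnt target Sp5, with Dkk1 the seventh gene in that order. Dkk1-high cells were led by Gal, Msx2 and Sp5. The class that led for Frzb and Dkk1 depended on the measure, since after thinning lateral plate cells had the largest share with a Frzb UMI (10.9%, against 10.4% in cranial, with anterior second heart field leading when cells were thinned to 2000 UMIs) and cells of no list the largest share with a Dkk1 UMI among the mesodermal classes (5.97%, against 5.68% in cranial).

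Dkk2 was highest, by mean CPM, outside the marker lists. Cells of no list had 18.5 ± 13.3 CPM (n = 9), lateral plate cells 15.0 ± 14.5 CPM (n = 7) and posterior second heart field cells 6.84 ± 4.13 CPM (n = 8), and every other class 3.49 CPM or less. After thinning, the share of cells with a Dkk2 UMI was largest in lateral plate cells (7.59%, against 5.21% in cells of no list). Of all Dkk2 UMIs in E9.5 control cells, 66.4% came from the cells of no list, which held 26.9% of all UMIs. In E8.0 controls their part was 36.3% of Dkk2 UMIs, beside 33.5% in posterior second heart field cells, so at that stage most Dkk2 UMIs lay in other cells. The 261 cells with at least 3 Dkk2 UMIs were led by Postn (470 CPM against 11.6 CPM in the other cells), Col1a1, Prss35, Ccn4, Lum and Hand1. Postn, Col1a1 and Lum are extracellular matrix genes of mesenchyme, and Hand1 is a transcription factor of lateral and extraembryonic mesoderm.

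Among the R-spondins, Rspo3 and Rspo1 were highest in different classes. Averaged over samples of all stages, Rspo3 was highest in cardiomyocytes (94.2 ± 64.4 CPM, n = 9) and lateral plate cells (62.3 ± 32.4 CPM, n = 7), which overlapped within 1 SD. It stood at 1.60 ± 1.75 CPM in anterior second heart field cells (n = 5). In pooled E8.0 control cells Rspo3 was at 28.6 CPM in cardiomyocytes. That was below lateral plate (79.1 CPM), endothelial (58.1 CPM), posterior second heart field (31.5 CPM) and paraxial cells (30.5 CPM). Averaged in the same way, Rspo1 was highest in posterior second heart field (44.1 ± 25.2 CPM, n = 8) and cranial cells (37.8 ± 27.3 CPM, n = 8), which overlapped. It was at 24.9 ± 10.4 CPM in anterior second heart field (n = 5) and at 1.54 ± 0.935 CPM in cardiomyocytes (n = 9). Taken by stage, posterior second heart field and cranial cells lay apart. In pooled E8.0 control cells their order was reversed, with 68.1 CPM in cranial and 15.7 CPM in posterior second heart field cells. In pooled E9.5 control cells cranial cells had 18.2 CPM and posterior second heart field cells 55.6 CPM. The sample ranges of these classes at each of these stages, given below, did not overlap. After thinning, an Rspo3 UMI was found in 21.7% of cardiomyocytes and 0.26% of erythroid cells, and an Rspo1 UMI in 19.4% of posterior second heart field cells and 0.30% of erythroid cells. Unthinned, these shares were 34.1% and 1.27% for Rspo3 and 45.4% and 1.71% for Rspo1. Rspo3-high cells were led by Ankrd1, Hspb1 and Etv2, a mixture of cardiomyocyte genes with a regulator of blood and vessel precursors, and Rspo1-high cells by Wnt4, Cxcl13, Osr1 and Foxl2.

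Rspo2 and Rspo4 were sparse. Rspo2 averaged 6.28 ± 7.53 CPM in posterior second heart field (n = 8) and 4.60 ± 4.44 CPM in cells of no list (n = 9), which overlapped, while after thinning the share with an Rspo2 UMI was 2.45% and 2.91%. Rspo4 averaged 4.85 ± 4.65 CPM in cells of no list (n = 9) and 1.43 CPM or less in every other class with a mean. Pooled E9.5 control endoderm cells had 1.64 CPM of Rspo4. Of the Rspo4 UMIs in E9.5 controls, 81.1% came from cells of no list. The thinned share of Rspo4 was 3.05% in those cells, 0.42% in erythroid cells and at most 0.46% in every other class. In E8.0 controls, 58.0% of Rspo4 UMIs lay in erythroid-positive cells, which held 22.3% of all UMIs, out of 50 Rspo4 UMIs in all. The erythroid share is therefore not taken as a background for Rspo4. Cells high for Rspo4 were led by Lhx9, Hoxd9 and Hoxa5, and Rspo2-high cells by Hoxa5, Rgcc, Hoxc5 and Rspo4, a set marked by the Hox genes of trunk position.

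**Figure D1:**
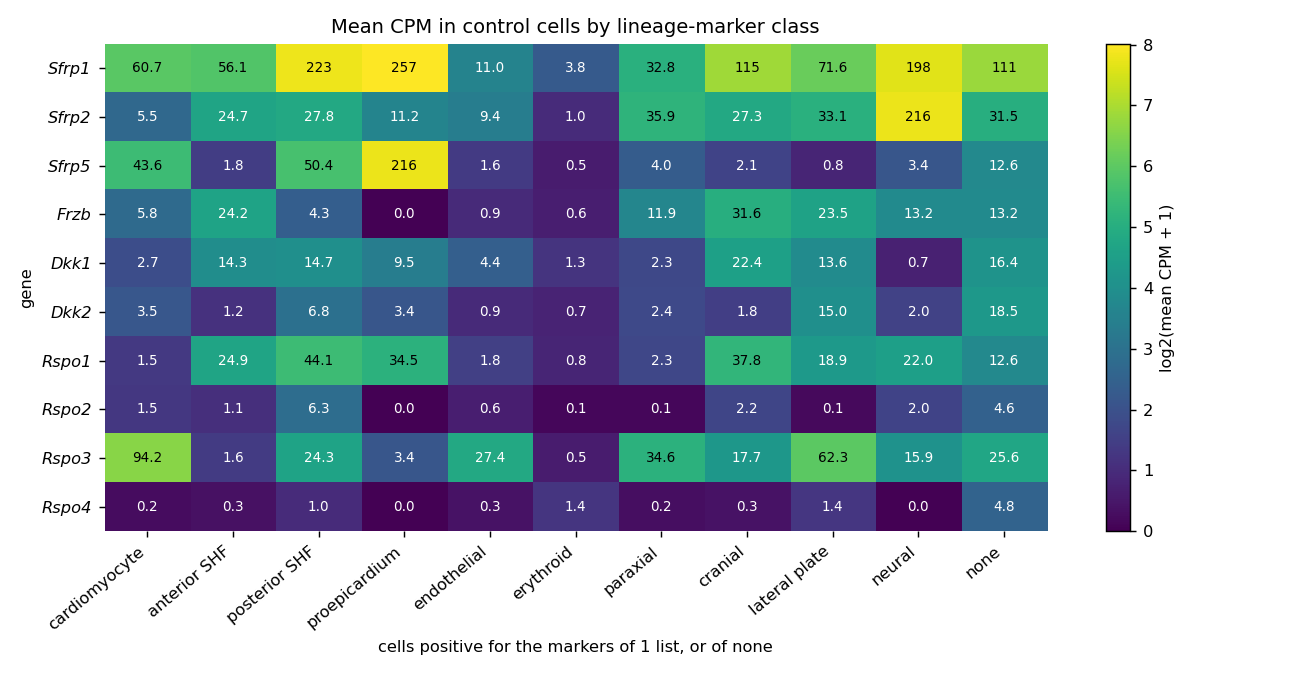
Mean CPM of each gene (rows) in control cells by marker class (columns), averaged over samples of at least 20 such cells, with the colour on a log2(mean CPM + 1) scale and the mean printed in each cell; SHF is second heart field. Sfrp1 peaks in proepicardial and posterior second heart field cells, Sfrp2 in neural-marker cells, Rspo3 in cardiomyocytes, and Dkk2 and Rspo4 in cells of no list, by mean CPM over all stages.

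Profiles over 28 combinations of class and stage in control cells were used to find the genes most like each member, by Pearson's r of log2(CPM + 1) among genes reaching 20 CPM in a profile. The profiles share libraries and depth, so r is a description. Among the genes most like Sfrp5 were Tbx5 (r = 0.86) and Gata4 (0.85), a pair of cardiac transcription factors. Sfrp1 was closest to Cnih2 (0.92), Tenm3 (0.91) and Trabd2b (0.89), the last of these itself a secreted-Wnt-inactivating membrane protease. Dkk2 was closest to Gm21814 (0.87), Steap2 (0.83) and Msx2 (0.79), and Rspo3 to Ebp (0.79) and Mtss1 (0.75). Among the genes most like Dkk1 were Svep1 (0.74) and Tmem45a (0.71). Among the members themselves the most alike pair was Sfrp1 and Rspo1 (r = 0.76). Rspo2 and Rspo4 did not reach 20 CPM in any profile.

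The next question was how the levels change with developmental stage. Between E8.0 and E9.5, with genotype as a covariate in edgeR's quasi-likelihood test, 6 of the 10 genes passed an adjusted p of 0.05, where 19.2% of all 20831 tested genes did. Sfrp2, Dkk2, Rspo2 and Rspo4 were higher at E9.5 and Sfrp5 and Frzb lower, so neither the antagonists nor the R-spondins moved as a block. The median log2 fold change was 0.22 over the members and 0.00 over all genes. In summed samples, fewer cells of a type and less RNA per cell cannot be told apart. These 6 calls held in each of the 22 fits that left out 1 sample and in all 6 other settings, run 1 alone and run as a term among them.

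Rspo2 had the largest change. Its 6 E8.0 samples lay between 0.35 and 0.63 CPM, and at E9.5 the controls ranged from 0 to 22.3 CPM (median 3.41) and the mutants from 2.16 to 8.34 CPM (median 5.29). Every E9.5 sample lay above all E8.0 samples except 1 control with no Rspo2 UMI, and the log2 difference was 3.31 (SE 0.40, adjusted p = 1.06e-05). The highest value came from 3 UMIs in a control sample of 6 cells. In posterior second heart field cells of the 3 E8.0 controls no Rspo2 UMI was found, whereas the 4 E9.5 controls had 5.13, 7.58, 8.11 and 22.8 CPM.

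Rspo4 rose by 2.20 (SE 0.58, adjusted p = 0.0127), from 0.28 to 1.57 CPM over the 6 E8.0 samples to 0 to 8.62 CPM over the 12 E9.5 samples, with overlap. Dkk2 rose by 1.50 (SE 0.23, adjusted p = 8.79e-05). The E8.0 samples held 3.25 to 6.73 CPM of Dkk2, and the ranges at E9.5, given with the genotypes below, overlapped them at the low end. Within the cells of no list Dkk2 was at 5.51, 6.98 and 7.25 CPM in E8.0 controls and at 19.1 to 48.8 CPM in the 5 E9.5 controls, with no overlap. Sfrp2 rose by 0.86 (SE 0.17, adjusted p = 0.00105), from 9.08 to 20.4 CPM at E8.0 to 12.6 to 44.6 CPM at E9.5. Among these 3 genes the ranges of all samples overlapped between the stages.

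Sfrp5 fell by 1.63 on the log2 scale (SE 0.27, adjusted p = 0.000513). The E8.0 samples ranged from 24.2 to 42.5 CPM and the E9.5 samples from 0 to 21.9 CPM, and the stages did not overlap. The same order appeared inside 2 of the 3 classes where Sfrp5 was concentrated. In control cardiomyocytes Sfrp5 stood at 51.3, 101.6 and 137.5 CPM at E8.0 and at 4.90 to 21.4 CPM in the 5 E9.5 samples, and in posterior second heart field cells at 52.6, 92.5 and 119.3 CPM and then at 9.11, 11.7, 23.9 and 46.5 CPM. Neither class had overlapping stages. The third, the proepicardial class, had no cells at E8.0, so it could not be compared between these stages. Over its pooled control cells Sfrp5 stood at 216.4 CPM at E8.5 and 233.4 CPM at E9.5.

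Frzb fell by 0.90 (SE 0.19, adjusted p = 0.00182), from 10.0 to 22.8 CPM at E8.0 to 3.23 to 14.9 CPM at E9.5. Its cranial level in controls was 31.4, 57.3 and 60.0 CPM at E8.0 and 11.2, 16.6, 24.7 and 32.9 CPM at E9.5, which overlap by 1 sample. The other 4 genes did not pass: Sfrp1 had 0.34 (adjusted p = 0.136), Dkk1 -0.57 (0.0681), Rspo1 0.11 (0.660) and Rspo3 -0.34 (0.564), all from edgeR. For Rspo1 and Rspo3 these small sums stood beside large shifts by class. Rspo3 in control cardiomyocytes went from 19.4, 32.8 and 44.1 CPM at E8.0 to between 73.8 and 197.3 CPM at E9.5, while in lateral plate cells it was 78.8 and 79.8 CPM and then 18.9 to 80.0 CPM. Rspo1 in control posterior second heart field cells went from 13.9, 15.6 and 19.6 CPM to between 39.5 and 65.0 CPM, while in cranial cells it went from 54.3, 67.3 and 85.7 CPM to between 15.8 and 20.8 CPM. None of these Rspo1 ranges, nor that of Rspo3 in cardiomyocytes, overlapped between stages.

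**Figure D2:**
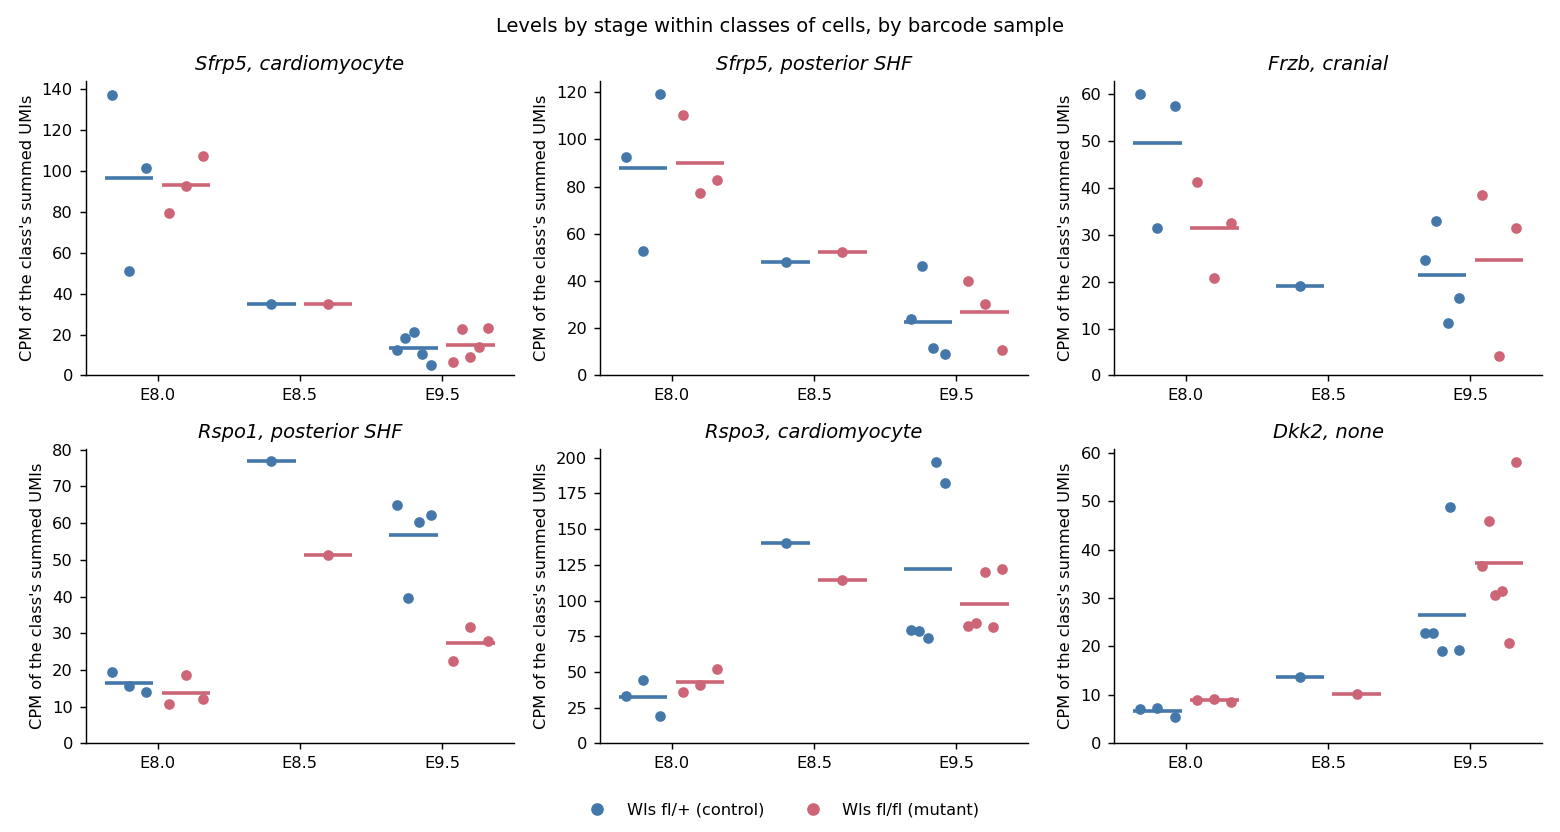
CPM by stage for 6 pairs of gene and class, each point 1 barcode sample of at least 20 cells of the class, with lines at the group means; blue is control and red mutant. Sfrp5 is lower at E9.5 than at E8.0 in cardiomyocyte and posterior second heart field classes, and Rspo3 in cardiomyocytes is higher; Rspo1 in posterior second heart field cells lies at 39.5 to 65.0 CPM in E9.5 controls and at 22.3 to 31.7 CPM in E9.5 mutants.

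The main comparison of the design asked how these genes differ when Wls is removed from the Mesp1 lineage. Wnt secretion itself was not measured. Over all stages together Sfrp1 was the member that changed, 0.53 higher in mutants (SE 0.12, adjusted p = 0.00816 by edgeR). This was 1 of 10, where 10.2% of all tested genes passed. The median over the members was 0.18, and 0.02 over all genes. Frzb (-0.45, adjusted p = 0.0822), Dkk2 (0.52, 0.114), Sfrp5 (0.54, 0.259) and Rspo1 (-0.24, 0.241) did not pass, and for the other 5 genes the adjusted p was 0.498 or more. Sfrp1 kept its call in all 22 fits that left out 1 sample, with 0.54 (adjusted p = 0.00527) without the library labelled E7.5 control. Within single runs its value was 0.45, 0.64 and 0.81 in runs 1, 2 and 3, with adjusted p of 0.107, 0.140 and 0.355.

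**Figure D3:**
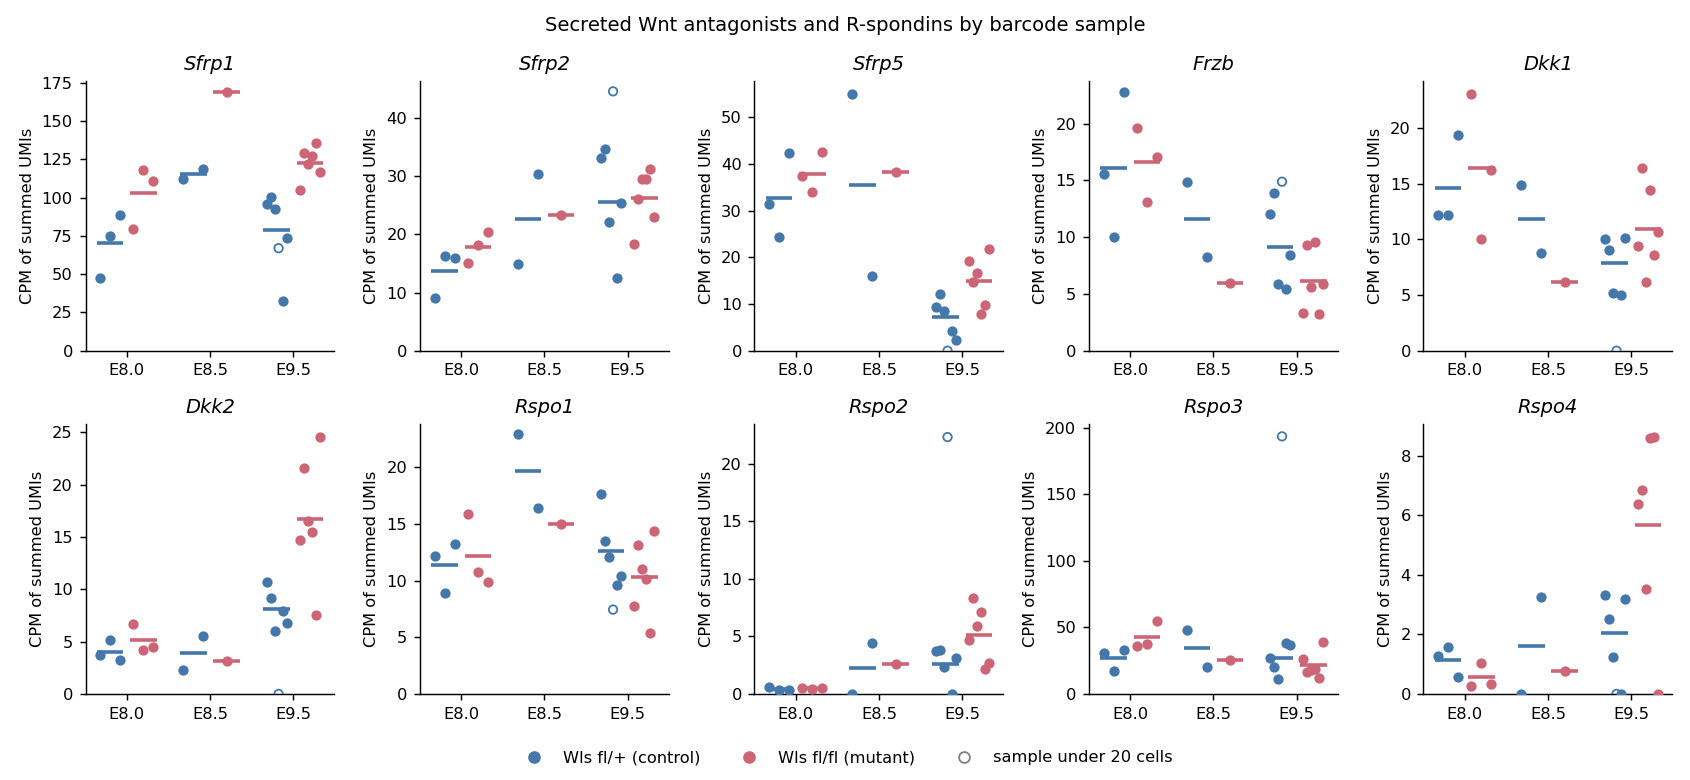
CPM of each gene by stage and genotype, each point 1 barcode sample, with lines at the means over samples of at least 20 cells; the open points are the E9.5 control of 6 cells. At E9.5 all 6 mutants lie above all controls for Sfrp1, and for Dkk2 all but 1 do.

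At E8.0 none of the 9 members tested passed (0 of 9; 0.0122% of 16416 genes passed), none had an unadjusted p under 0.05 in edgeR, and DESeq2 called none either. Rspo2 was too low to be tested there. Wls itself did not pass in this edgeR test (-2.38, SE 0.26, adjusted p = 0.253). A member that did not pass at E8.0 is therefore not shown to be unchanged. Sfrp1 stood at 47.4, 74.7 and 88.7 CPM in controls and at 79.5, 111.0 and 118.0 CPM in mutants, with overlap and a log2 difference of 0.47 (SE 0.25, adjusted p = 0.563). Rspo3 stood at 17.0, 30.8 and 32.9 CPM in controls and 36.0, 37.6 and 55.0 CPM in mutants. These Rspo3 values did not overlap, and the log2 difference of 0.60 (SE 0.27) had an adjusted p of 0.528. Between 98.3% and 99.1% of the sexed cells in the mutant samples were male-like, against 2.16%, 2.34% and 53.1% in the controls, so at this stage genotype and sex cannot be told apart. The control at 53.1%, Bar29, held male-like and female-like cells, and whether it stood for more than 1 embryo was not tested. Cell make-up differed too. The summed level of the 10 cardiomyocyte markers ran from 1744 to 3090 CPM in controls and from 4380 to 4475 CPM in mutants. Erythroid-positive cells made up 7.39% to 29.5% of controls and 3.04% to 11.0% of mutants, with overlap. The part of this in the E8.0 values was not tested.

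At E8.5 a single mutant sample allows no test. Sfrp1 stood at 112.3 CPM (95% exact Poisson interval 91.1 to 136.8) and 118.9 CPM (116.2 to 121.7) in the controls and at 169.2 CPM (161.4 to 177.3) in the mutant. The mutant lay outside both control intervals, which cover counting error only. For Frzb the controls had 14.9 CPM (7.93 to 25.5) and 8.27 CPM (7.57 to 9.02) and the mutant 5.92 CPM (4.54 to 7.59), and for Dkk2 2.29 CPM (0.28 to 8.28) and 5.53 CPM (4.96 to 6.15) against 3.15 CPM (2.17 to 4.42). The first control of each pair is a sample of 34 cells, and for Dkk2 its interval holds the mutant value.

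At E9.5, 3 of 10 members passed, where 11.0% of all 17227 genes did. Sfrp1 and Dkk2 were higher in mutants and Frzb was lower. The median log2 fold change was 0.49 over the members and 0.02 over all genes. Sfrp1 ranged from 32.2 to 100.6 CPM in controls (median 83.2) and from 105.0 to 135.8 CPM in mutants (median 124.4). The groups did not overlap, and the log2 difference was 0.61 (SE 0.13, adjusted p = 0.00871). Fits without 1 sample gave 0.49 to 0.70 and kept the call each time. By run, Sfrp1 differed by 0.41 in run 1 (adjusted p = 0.0218) and by 0.90 in runs 2 and 3 together (adjusted p = 0.0562).

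Dkk2 had the largest difference of those that passed. Controls ranged from 0 to 10.7 CPM (median 7.37) and mutants from 7.54 to 24.5 CPM (median 16.0). Only the lowest mutant, a sample of 57 cells with 7 Dkk2 UMIs, lay within the control range, and the other 5 lay above it. The log2 difference was 0.98 (SE 0.17, adjusted p = 0.00128), and 0.87 to 1.08 without 1 sample. By run the Dkk2 values were 0.89 in run 1 (adjusted p = 0.0245) and 1.14 in runs 2 and 3 (adjusted p = 0.115). Cells with at least 3 Dkk2 UMIs made up 1.71% of the 5733 control cells and 3.63% of the 2785 mutant cells at this stage.

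Frzb, the other called gene, moved down. Controls held 5.44 to 14.9 CPM (median 10.2) and mutants 3.23 to 9.53 CPM (median 5.75), with overlapping ranges and a log2 difference of -0.69 (SE 0.19, adjusted p = 0.0244). This Frzb call was lost without any 1 of 4 samples, the controls Bar9 and Bar23 and the mutants Bar10 and Bar20, with adjusted p up to 0.103. Run 1 alone gave -0.62 (adjusted p = 0.118) and runs 2 and 3 gave -0.82 (adjusted p = 0.363). The sign was the same in both subsets of runs, and neither passed.

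The 7 members that did not pass at E9.5 included some of the widest values. Rspo4 ranged from 0 to 3.34 CPM in controls and from 0 to 8.62 CPM in mutants (log2 difference 1.16, SE 0.51, adjusted p = 0.191). Sfrp5 ranged from 0 to 12.2 CPM in controls and from 7.75 to 21.9 CPM in mutants (0.92, SE 0.42, adjusted p = 0.210). Both groups overlapped for each gene. Rspo2 (0.81, adjusted p = 0.112), Rspo1 (-0.35, 0.158), Dkk1 (0.36, 0.427), Rspo3 (-0.41, 0.601) and Sfrp2 (-0.12, 0.635) did not pass either. In all, 6 of the 10 members had an unadjusted p under 0.05, as did 4472 of all 17227 genes. Some of these depended on the setting. Without a filter on low counts 7 members passed, Sfrp5, Rspo2, Rspo3 and Rspo4 being the added ones. Sfrp5 also passed in DESeq2 (1.10, adjusted p = 0.0326), but in edgeR it was 0.55 (adjusted p = 0.254) without the control Bar9, 0.32 (0.532) in run 1 and 2.05 (0.0607) in runs 2 and 3. Rspo2 passed in run 1 alone (0.96, adjusted p = 0.0269), and Dkk1 without the mutant Bar20 (0.61, 0.0273).

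**Figure D4:**
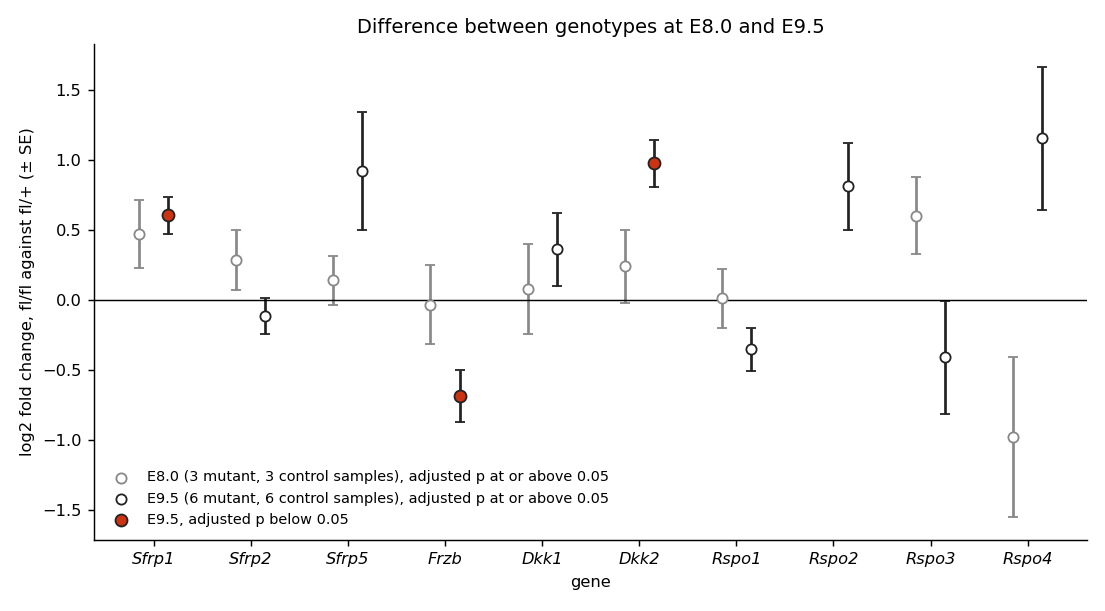
Log2 fold change of mutant against control (points) with its approximate standard error (bars) for each gene at E8.0 and E9.5; filled points have an adjusted p below 0.05. At E9.5 Sfrp1 (0.61), Dkk2 (0.98) and Frzb (-0.69) are filled, and no E8.0 point is.

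Whether the genotype difference itself changed between E8.0 and E9.5 was tested as an interaction. None of the 10 members passed in edgeR or in DESeq2, where 0.515% of all genes passed in edgeR, and 2 members had an unadjusted p under 0.05, as did 2015 of 17872 genes. These were Dkk2 (0.74 more at E9.5, SE 0.31, adjusted p = 0.361) and Rspo4 (2.14, SE 0.96, adjusted p = 0.424). The calls at E9.5 are therefore not shown to be specific to that stage.

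The make-up of the sorted cells differed between genotypes at E9.5 in samples of at least 20 cells. Cells of no list made up 18.3% to 30.5% of the controls and 33.6% to 41.7% of the mutants, with no overlap, and cranial-positive cells 7.89% to 16.2% of controls and 3.35% to 8.33% of mutants. Proepicardial-positive cells made up 0.73% to 1.22% of controls (median 0.82%) and 0.60% to 3.93% of mutants (median 1.78%). The summed level of the 7 proepicardial markers, none of them at 0, ran from 40.6 to 84.1 CPM in controls (median 66.6) and from 74.7 to 135.8 CPM in mutants (median 104.9). The summed level of all 7 cranial markers, none of them at 0, ran from 200.2 to 417.5 CPM in controls and from 155.2 to 302.4 CPM in mutants. In E9.5 controls the cranial class held 32.4% of Frzb UMIs, and the class of no list 66.4% of Dkk2 and 39.3% of Sfrp1 UMIs, while the proepicardial class held 1.97% of Sfrp1 and 20.1% of Sfrp5 UMIs. The part of this shift in the sums was not tested, and the values within classes follow.

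A class fit held only the stages where both genotypes had samples of at least 20 such cells. For anterior second heart field this was E9.5 alone (3 controls, 2 mutants). For cranial (7 and 6) and lateral plate cells (6 and 4) it was E8.0 and E9.5, and for the other classes E8.0, E8.5 and E9.5. Within classes, 57 tests of a member in 1 of 9 classes were made, and after adjustment over all genes of a class 1 passed. This was Sfrp1 in the cells of no list, at 0.59 (SE 0.10, adjusted p = 0.00425), where 8.01% of all genes passed. At E9.5 the controls of that class had 66.0, 113.4, 126.4, 140.4 and 179.0 CPM of Sfrp1, and the 6 mutants 141.7 to 386.2 CPM (median 178.2). The groups overlapped by 1 control, and all 19 fits without a sample kept the call. The class of no list is a remainder whose share was larger in mutants, and whether its own make-up differed by genotype was not tested.

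In cardiomyocytes, where 1.32% of all genes passed, Sfrp1 differed by 0.53 (SE 0.22, adjusted p = 0.287). The E9.5 samples alone gave 0.92 (adjusted p = 0.00708), from 34.6, 41.5, 50.7, 60.4 and 89.3 CPM in controls and 46.9, 92.8, 95.3, 97.9 and 137.8 CPM in mutants, an alternative chosen after seeing the data. With only samples of at least 50 cardiomyocytes the value was -0.04 (adjusted p = 0.987). The Sfrp1 result in cardiomyocytes therefore depends on which samples enter. Sfrp1 values in posterior second heart field (0.25, adjusted p = 0.343), paraxial (0.26, 0.289) and cranial cells (0.29, 0.161) did not pass. The largest Sfrp1 value of any class, 1.19 (SE 0.50, adjusted p = 0.611) in lateral plate cells, did not pass either. In anterior second heart field cells, tested at E9.5 alone with 3 controls and 2 mutants, the Sfrp1 value was -0.0027 (adjusted p = 0.997).

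Dkk2 in the cells of no list differed by 0.48 (SE 0.15, adjusted p = 0.0573), short of the threshold. It passed with the stricter marker score (0.62, adjusted p = 0.0243), with at least 50 cells per sample (0.55, 0.0426) and at E9.5 alone (0.69, 0.0367). Dkk2 in the E9.5 controls stood at 19.1, 19.2, 22.7, 22.9 and 48.8 CPM, the last from 17 UMIs. The 6 mutants ran from 20.7 to 58.2 CPM (median 34.0), so the ranges overlapped. In cranial cells Dkk2 differed by 1.95 over the stages (adjusted p = 0.159). There the 3 mutants at E9.5 stood at 2.04, 3.50 and 38.5 CPM and the 4 controls at 0.77 to 3.91 CPM, and the 3 mutants at E8.0 at 0 to 3.35 CPM. In lateral plate cells at E9.5 the 4 controls had 6.77, 11.8, 22.2 and 43.1 CPM of Dkk2 and the 1 mutant 70.4 CPM (log2 difference over the stages 1.28, adjusted p = 0.555).

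Frzb did not pass in any class where it was tested, with all the stages of that class's fit. In cranial cells, its leading class by mean CPM over the stages, Frzb at E9.5 lay at 11.2, 16.6, 24.7 and 32.9 CPM in 4 controls and at 4.09, 31.5 and 38.5 CPM in 3 mutants. These ranges overlapped, and the log2 difference over the stages was -0.42 (SE 0.32, adjusted p = 0.522). In cells of no list the Frzb value was -0.41 (SE 0.16, adjusted p = 0.118), and it passed with the stricter marker score (-0.48, adjusted p = 0.0336). With the E9.5 samples alone it was -0.63 (adjusted p = 0.0764), beside -0.69 in the summed samples at that stage. In posterior second heart field cells the sign was opposite, 0.66 (SE 0.30, adjusted p = 0.328).

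**Figure D5:**
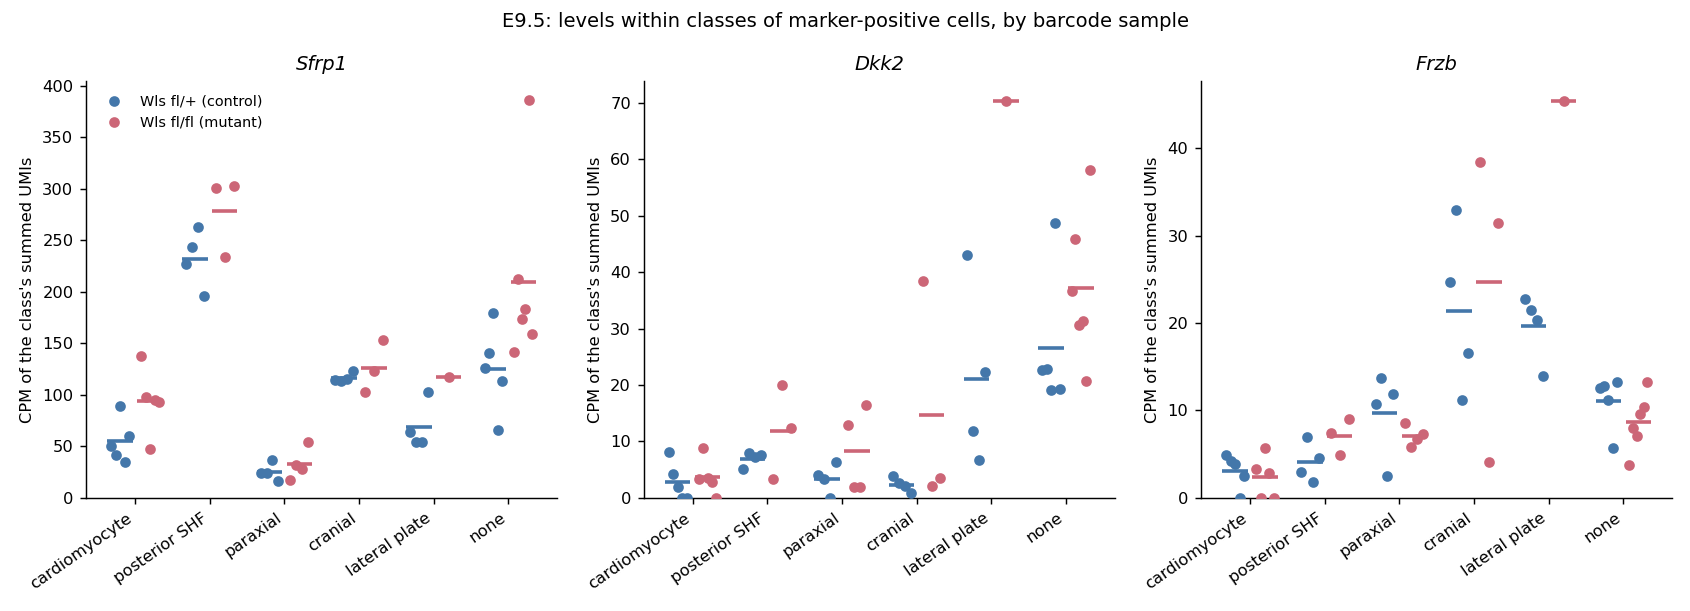
CPM of Sfrp1, Dkk2 and Frzb at E9.5 by marker class, each point 1 barcode sample of at least 20 cells of the class, with lines at the group means. In the cells of no list the Sfrp1 means lie apart and 1 control lies within the mutant range, while for Frzb in cranial cells the mutants at 4.09 to 38.5 CPM span the controls.

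Rspo1 in posterior second heart field cells had a low unadjusted p that did not survive adjustment. There 0.0394% of all genes passed, and 4 of 10 members had an unadjusted p under 0.05, as did 1778 of all 12683 genes. Rspo1 was at 39.5, 60.3, 62.2 and 65.0 CPM in the E9.5 controls and at 22.3, 27.9 and 31.7 CPM in the mutants, without overlap. At E8.0 it was at 13.9, 15.6 and 19.6 CPM against 10.7, 12.1 and 18.5 CPM. In edgeR's quasi-likelihood test the log2 difference over the stages was -0.60 (SE 0.17, adjusted p = 0.167). Rspo3 in paraxial cells, where 5.95% of all genes passed, differed by -0.49 (adjusted p = 0.0949) and by -0.74 (adjusted p = 0.0102) in samples of at least 50 cells.

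In the remaining classes no member passed. The share of all genes that passed was 8.84% in anterior second heart field, 0.165% in endothelial, 1.21% in cranial, 0.0370% in lateral plate and 0% in erythroid cells. In the erythroid class 817 of 11278 genes had an unadjusted p under 0.05, edgeR being the tool run there. Sfrp5 in erythroid cells had the largest value, 2.56 (SE 0.55, adjusted p = 0.231), at a control level of 0.53 ± 0.39 CPM (n = 9).

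The other genes of the pathway were taken from 4 fixed lists. Of 11 further secreted inhibitors, 6 could be tested at E9.5 and 1 was higher in mutants, where 11.0% of all genes passed in either direction. This was Dkk3, a divergent Dickkopf, at 0 to 4.05 CPM in controls (median 2.94) and 4.31 to 10.7 CPM in mutants (median 5.96), without overlap (log2 difference 0.90, SE 0.21, adjusted p = 0.0123). Over all stages Dkk3 differed by 0.53 (adjusted p = 0.0383). Of the R-spondin receptors and ligases 4 of 5 could be tested at E9.5 and none passed, and of the Dickkopf co-receptors 5 of 5 were tested and none passed.

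Of 12 feedback targets of the pathway, all tested at E9.5, 2 were lower in mutants and 10 did not pass, again beside 11.0% of all genes. Nkd2, an inhibitor induced by Wnt, was at 4.87 to 13.3 CPM in controls and 3.23 to 8.11 CPM in mutants (log2 difference -0.89, adjusted p = 0.00452). Over all stages Nkd2 differed by -0.48 and did not pass in edgeR (adjusted p = 0.0922). Ccnd1, a cyclin, was at 77.1 to 119.0 CPM in controls and 67.9 to 84.9 CPM in mutants (-0.45, adjusted p = 0.00234), and over all stages it differed by -0.33 (adjusted p = 0.0191). Both ranges overlapped. The list medians at E9.5 were 0.28 for the inhibitors, -0.09 for the receptors and ligases, 0.11 for the co-receptors and 0.00 for the targets, beside 0.02 over all genes.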

How the data were processed

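The members and gene lists were chosen with earlier results of these data known. Sorted cells were captured on the 10x Chromium (v3) and sequenced in 3 runs, per the labels' protocols. The authors mapped reads with kallisto and bustools (0.46.1) on GRCm38, per the submitters' processing notes. The deposited matrix holds raw UMI counts per gene and cell, and the authors' per-cell table gives run, barcode, stage and genotype. Which annotation, strand setting and cell filters were used is not given in the sources used here.

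Counts were summed over the cells of each of 22 barcode samples and tested in edgeR 4.0.16 (R 4.3.3): filterByExpr, TMM, robust quasi-likelihood F test, two-sided, Benjamini-Hochberg adjustment over all genes tested, threshold 0.05. Terms were genotype, with stage and run where estimable; the stage test had genotype as covariate. All 10 members were named, with list genes that passed in a genotype test. Classes entered with at least 20 cells per sample. The fit was tested on simulated data. DESeq2 1.42.0, limma 3.58.1, other scaling, no filter, single runs, male share, cell numbers, stricter scores and leaving out each sample were tried as alternatives. Cells were thinned to 5000 UMIs, leaving out 447 shallower ones. High cells held at least 3 UMIs of a member and were taken from both genotypes and all stages. This rule was set after values had been seen. The leading genes of high cells, ranked by the ratio of CPM with 5 added, are a description. GENCODE M21 held 51846 of 51923 symbols. Intervals cover counting error only. Some genes among those most like a member are not reported here.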

Additional observations from a re-analysis of the deposited data

Results flagged for a closer look

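In the E9.5 control sample of barcode Bar6, Rspo2 stood at 22.3 CPM and Rspo3 at 193.4 CPM, each far from the other 5 controls (0 to 3.81 CPM and 11.25 to 38.1 CPM). The sample holds 6 cells, and the values rest on 3 and 26 UMIs. Of 22 groups of 6 samples looked at, 2 were set apart in this way, and chance alone sets apart about 1 in 20. The E9.5 comparison in samples of at least 20 cells, without this sample, again had 3 members past the threshold.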

How the results depend on the processing

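Of 106 member values over all comparisons, 80 passed in no setting, and 36 of these changed sign in at least 1 setting. Of the 26 that passed in some setting, no value reported as passing changed sign. Among those not reported as passing, Dkk2 over all stages was -0.03 without the E9.5 samples and -0.21 in run 2 alone, Dkk1 at E9.5 -0.04 with male share as covariate, Rspo3 by stage 0.01 with DESeq2, and Sfrp1 in cardiomyocytes -0.04 with at least 50 cells per sample, each opposite in sign to the reported value and short of the threshold. The stage calls of 6 members were kept under every alternative run. With DESeq2 the counts of all genes past the threshold were 3274 for genotype over all stages (2134 in edgeR), 45 at E8.0 (2) and 397 for the interaction (92), and 2 members passed over all stages in place of 1. With limma on mean CPM per cell 510 genes passed over all stages. Runs 1, 2 and 3 alone gave 2, 60 and 123 genes, with 0 members in runs 1 and 2. Without the E9.5 samples 0 genes and 0 members passed. With male share as covariate 1012 genes and 2 members passed over all stages, and 0 genes at E8.0. Without erythroid and endothelial marker-positive cells 2 members passed over all stages. With no filter on low counts 19 genes passed at E8.0, 183 for the interaction and 7 members at E9.5 in place of 3. Runs 2 and 3 together gave 127 genes and 0 members at E9.5 (1897 and 3 in all runs), and run 1 alone gave 17 genes for the interaction. For the marker classes 3 tests of a member in a class passed with the stricter score, with at least 50 cells and at E9.5 alone, in place of 1. Leaving out 1 sample gave 1334 (without the control Bar23) to 2484 genes and 1 to 2 members over all stages, 1 to 17 genes at E8.0, 802 (without the control Bar23) to 2449 genes and 2 to 3 members at E9.5, 35 to 146 for the interaction, 2845 to 4475 genes and 6 to 7 members for stage, and 1 to 3 such tests in the classes; the cause was not tested. Fewer samples entered each of these fits. No paired analysis was possible because the labels give the samples of the groups compared no shared replicate numbers. Depth limits Rspo2 and Rspo4 most, with 50 Rspo4 UMIs in all E8.0 controls, and samples of 6, 34 and 57 cells give the least precise values.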

Other observations

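The library labelled E7.5 control, of 28 cells, 60.7% of them erythroid-positive, held 12 Sfrp1 UMIs (24.2 CPM), 11 Sfrp2 UMIs (22.2 CPM), 4 Rspo3 UMIs and 1 Rspo4 UMI, and no UMI of the other 6 members.

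Between E8.0 and E9.5, where 19.2% of all genes passed, 3 of the 11 other secreted inhibitors were higher at E9.5, 2 were lower and 6 did not pass. Wif1 (1.81), Sostdc1 (3.31) and Igfbp4 (0.41) were higher at E9.5, and Cer1 (-3.01) and Dkkl1 (-1.33) lower, with edgeR adjusted p of 0.0183 or less. The R-spondin receptor Lgr5 was lower at E9.5 (-0.75, adjusted p = 0.0163), and the other 4 genes of its list did not pass. Among the 5 Dickkopf co-receptors Lrp5 was lower (-0.38, adjusted p = 0.0468) and 4 did not pass. Of the 12 feedback targets 1 was higher (Nkd2, 0.83), 5 were lower (Lef1, Sp5, T, Cdx1 and Apcdd1, -0.46 to -2.55) and 6 did not pass, beside the same 19.2%. These genes were named after their values were seen.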
